A study of Caenorhabditis elegans with 2 samples.

Results

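The peaks described here are the weaker REC-8 peaks on the autosomes whose summits lay upstream of protein-coding transcript starts of 1 strand only, called one-sided promoter peaks below. REC-8 occupancy was mapped by chromatin immunoprecipitation and sequencing (ChIP-seq) in whole hermaphrodite Caenorhabditis elegans of strain YL581, a transgenic line in which REC-8 carries a C-terminal GFP-FLAG tag from a stable insertion, at the young adult stage, 50 hours after synchronization as starved L1 larvae. The sources used here name neither the promoter of the transgene nor the state of the native rec-8 gene. The 2 samples are biological replicates of that 1 group, each with its own protocol document. The description names an anti-GFP antibody and the antibody field names rec-8, and the discrepancy could not be resolved. The labels also name a control, and neither that control nor any untagged sample was analysed here. The files are peak lists without read counts, so the depth behind each peak is unknown. The list called on both replicates pooled held 10019 peaks, the replicate 1 list 17532 and the replicate 2 list 14069. Because whole animals were used, fewer cells with REC-8 at a site and less REC-8 per cell cannot be told apart.

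Members were selected on the peak caller's signal and on position. An autosomal peak of the pooled list was a member when its signal was below 92.7, its summit lay 1 to 1000 bp upstream of protein-coding starts of 1 strand and of none of the other, and the summit was over 250 bp from every tRNA, snoRNA, snRNA and rRNA gene. There were 2012 members, 20.1% of the pooled list and 24.7% of its 8133 weaker autosomal peaks. Another 60 weaker one-sided peaks were left out for lying near a short RNA gene. None of the 2012 members was among the 739 peaks of the list that the authors thresholded for reproducibility, which the signal limit fixes. The members lay upstream of 1880 genes, with 1958 members upstream of a single gene and 54 upstream of 2 genes. The strand was even, with 1018 members upstream of starts on the plus strand and 994 on the minus strand.

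Cohesin is a ring-shaped protein complex that holds sister chromatids together and shapes chromatin loops. Its kleisin subunit closes the ring, and REC-8 is a kleisin used in meiosis, present in the worm germ line beside the related kleisins COH-3 and COH-4. In yeasts and animals cohesin collects at gene ends, promoters and other sites where transcription or bound proteins meet it. A one-sided promoter has genes of a single direction downstream, often with a neighbour of the same direction behind it, and in worms many such neighbours with short gaps are transcribed together as operons.

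The sequences below are the 200 bp at the summits of members with strong partners in both replicates, together with the member in rec-8 itself, and they show the base composition and the short motifs counted further on. They come from the RefSeq genome sequence of WBcel235 and are written 5′ to 3′ on the strand of the downstream gene. Capitals mark matches, on either strand, to the 6 motifs searched, which were the palindrome GCGC, the repeat GAGAGA, the core of GATA factor sites TGATAA, the letters of a promoter box TATAAA, the E-box CACGTG and the run TTTTTTTT. The first is upstream of eel-1, which encodes a HECT-type ubiquitin ligase, and lies at IV:3050712-3050911 on the minus strand.
eel-1: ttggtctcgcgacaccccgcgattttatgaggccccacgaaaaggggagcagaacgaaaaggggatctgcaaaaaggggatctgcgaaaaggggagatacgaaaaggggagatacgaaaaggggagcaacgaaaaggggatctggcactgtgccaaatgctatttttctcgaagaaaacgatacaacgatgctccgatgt
The next is upstream of pst-2, which encodes a transporter of the sulfate donor PAPS, at III:5680191-5680390 on the plus strand. It holds 2 copies of GCGC.
pst-2: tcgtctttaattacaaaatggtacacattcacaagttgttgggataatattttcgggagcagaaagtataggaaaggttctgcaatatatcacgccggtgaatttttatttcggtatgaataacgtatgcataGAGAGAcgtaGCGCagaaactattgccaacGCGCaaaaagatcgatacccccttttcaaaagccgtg
The member upstream of gst-1, a glutathione S-transferase gene, lies at III:9059013-9059212 on the plus strand.
gst-1: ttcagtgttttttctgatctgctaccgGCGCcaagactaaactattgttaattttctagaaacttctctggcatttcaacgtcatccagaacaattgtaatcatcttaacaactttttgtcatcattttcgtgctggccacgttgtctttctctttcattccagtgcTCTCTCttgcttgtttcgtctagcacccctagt
The member upstream of Y53F4B.21 lies at II:15089526-15089725 on the plus strand.
Y53F4B.21: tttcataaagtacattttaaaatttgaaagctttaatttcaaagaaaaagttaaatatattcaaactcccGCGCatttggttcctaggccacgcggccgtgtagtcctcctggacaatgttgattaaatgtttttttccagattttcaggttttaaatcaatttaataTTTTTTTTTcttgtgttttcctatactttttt
The member upstream of H37A05.4 lies at V:13650184-13650383 on the minus strand, in a non-coding exon stretch of a neighbour on the same strand.
H37A05.4: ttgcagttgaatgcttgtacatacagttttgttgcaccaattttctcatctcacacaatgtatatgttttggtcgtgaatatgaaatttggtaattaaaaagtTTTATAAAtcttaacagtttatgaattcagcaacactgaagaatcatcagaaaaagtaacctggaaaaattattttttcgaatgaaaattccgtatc
The member in rec-8 lies at IV:13349475-13349674 on the minus strand, in an intron upstream of an internal rec-8 start toward the 3′ end of the gene.
rec-8: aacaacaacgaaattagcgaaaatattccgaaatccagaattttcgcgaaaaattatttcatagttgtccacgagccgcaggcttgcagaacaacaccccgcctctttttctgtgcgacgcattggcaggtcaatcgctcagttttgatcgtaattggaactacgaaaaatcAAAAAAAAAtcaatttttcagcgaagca

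The 6 sequences differ in base composition, with GC contents of 50% for eel-1, 39.5% for pst-2, 40% for gst-1, 29.5% for Y53F4B.21, 29% for H37A05.4 and 40% for rec-8. At pst-2 the pooled signal was 86.5, with signals of 45.5 (rank 998) in replicate 1 and 50.7 (rank 639) in replicate 2. At gst-1 it was 71.6, with 44.6 (rank 1057) in replicate 1 and 48.6 (rank 708) in replicate 2. Signals are the authors' values and have no common scale between lists, so ranks within each list carry the comparison. At H37A05.4 the pooled signal was 85.3, and its partners ranked 298 in replicate 1 and 636 in replicate 2. At Y53F4B.21 it was 87.3, with partners of rank 1035 in replicate 1 and 891 in replicate 2. At eel-1 it was 70.7, with partners of rank 471 and 374, and a stronger pooled summit of signal 121 lay 200 bp away. These 5 members and K05C4.7 (ranks 834 and 785) are those of the 15 members with the best worse rank whose partners in both replicates had no nearer pooled summit than the member's own.

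The other 9 of those 15 members lay 200 to 220 bp from a stronger pooled summit that shared their replicate partners. The extreme case was eif-3.G, a gene for a subunit of translation initiation factor eIF3, whose member had a pooled signal of 47.0 (rank 5619) while its partners ranked 59 in replicate 1 and 92 in replicate 2. A pooled summit of signal 224 lay 200 bp from it. The remaining members of this kind were upstream of srh-2, adss-1, K12D12.5, rpa-2, col-71, W03H9.2, Y71F9AL.8 and R06F6.12, and their replicate ranks describe the stronger neighbour as much as the member. In the whole set, 278 members (13.8%) had another pooled summit within 430 bp and 489 (24.3%) had one within 1000 bp. Only 43 (2.14%) had a summit at or above the signal limit within 1000 bp. These shares were not computed for other weaker peaks.

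The signal of the members ran from 39.95 to 92.65, with a median of 48.6 and quartiles of 43.4 and 57.2. Only 75 members (3.73%) reached 80. The median was 53.4 for the 346 weaker peaks at divergent promoters, which have starts on both strands within 1000 bp downstream, and 47.1 for the 5531 weaker peaks with no start in reach. The 5 members just inside the limit were upstream of C16A11.3 (92.65), wrm-1 (92.64), spat-2 (92.17), K05C4.7 (92.10) and tofu-7 (91.68). WRM-1 is a β-catenin of the Wnt pathway, and TOFU-7 was identified through a role in germline piRNAs. The 5 one-sided peaks just outside were upstream of the tubulin gene tba-2 (92.85), Y41C4A.9 (93.17), ldp-1 (93.25), R151.2 (94.57) and C09E7.7 (95.19). The replicates disagreed on several of the highest members. C16A11.3 ranked 474 in replicate 1 and 5677 in replicate 2, and tofu-7 ranked 4755 in replicate 1 and 468 in replicate 2.

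Member summits were richer in G and C than the sequence open to them. The yardstick here and below is the eligible sequence, all autosomal positions that meet the position part of the rule, which came to 17.4 Mb or 21.1% of the autosomes. Median GC content was 37.5% at member summits (exact 95% interval of the median 37.5 to 38) and 34.5% over 87025 windows of 200 bp tiling the eligible sequence. It was 37% at the divergent-promoter peaks, 39% at the peaks away from starts and 39.5% at the 128 stronger one-sided promoter peaks. Soft-masked repeats took an average of 35.1% of the bases at member summits and 36.8% in the eligible windows. Intervals throughout are exact and reflect counting error alone, and they take each peak as an independent draw, which peaks close together are not.

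The palindrome GCGC stood out among the 6 motifs. It occurred in 728 of the 2012 members (36.2%, interval 34.1 to 38.3), against 18.4% of the eligible windows. The gap was present at like base composition. Among windows under 35% GC the palindrome was found in 26.4% of members (23.1 to 29.9) and 11.98% of eligible windows, and among windows of 45% GC or more in 48.9% of members (43.6 to 54.2) and 39.3% of eligible windows. GCGC was present at 54.6% of the divergent-promoter peaks and 25.9% of the peaks away from starts. The share went with signal, at 51.7% (47.2 to 56.1) in the 503 strongest members and 30.02% (26.04 to 34.2) in the 503 weakest. It was 18.2% (14.2 to 22.6) where the summit lay inside a gene of the same strand other than the downstream one, and 40.8% (37.2 to 44.4) in gaps after a gene of the same strand. By distance it was 39.5% (35.8 to 43.2) within 250 bp of the start and 30.7% (27.5 to 34.1) beyond 500 bp. The eligible windows were not split by setting or distance, so members and windows were not compared at like position. Each replicate's own list, cut at the same ranks, gave 33.8% in replicate 1 and 34.1% in replicate 2.

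The other motifs differed less from the eligible windows. GAGAGA was found at 15.1% of members (13.5 to 16.7) and 11.4% of windows, and windows under 35% GC had 8.55% for members (6.56 to 10.9) against 7.67%. At 45% GC or more GAGAGA was found at 25.97% of members (21.5 to 30.8) and 19.6% of windows. TGATAA, the core bound by GATA factors, was found at 14.3% of members (12.8 to 15.9) and 19.3% of windows. It was found at 11.8% of the divergent-promoter peaks and 13.8% of the peaks away from starts. TATAAA was found at 20.1% of members and 23.2% of windows, the E-box CACGTG at 4.37% and 3.45%, and runs of TTTTTTTT at 22.5% and 23.4%. Apart from GCGC and GAGAGA, the motifs were not compared at like base composition, and the eligible windows were poorer in G and C than the members. A match describes these letters in these windows and says nothing of a bound factor.

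**Figure D1:**
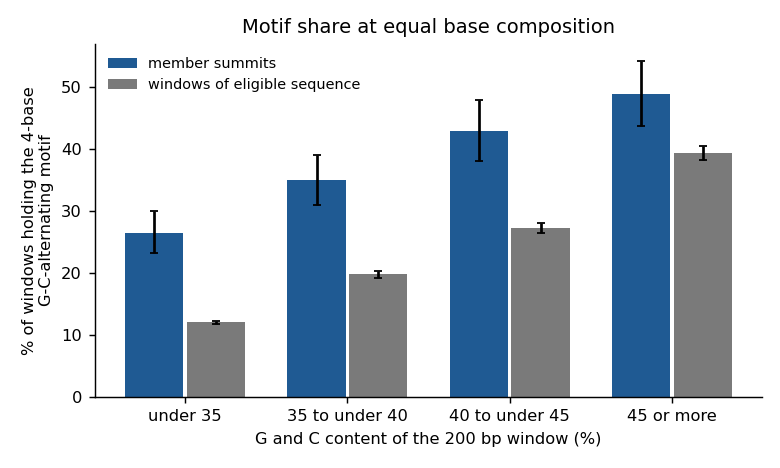
Share of 200 bp windows holding the palindrome GCGC (vertical axis, percent) by the GC content of the window (horizontal axis, percent), for member summits and for windows of eligible sequence; bars carry exact 95% binomial intervals. Members lie above eligible windows in all 4 GC classes, from 26.4% against 11.98% in the lowest to 48.9% against 39.3% in the highest.

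Members were densest just upstream of the start. The median distance from summit to the nearest downstream start was 391 bp (374 to 410), where the eligible sequence had a median of 491 bp. There were 115.6 members per Mb of eligible sequence overall (110.6 to 120.8). The density was 165 per Mb (147 to 185) in the first 100 bp, 138 per Mb between 200 and 300 bp, 115.5 per Mb between 400 and 500 bp and 91.1 per Mb between 500 and 600 bp. From there to 1000 bp it stayed between 88.3 and 97.6 per Mb. Within 250 bp lay 689 members (34.2%, 32.2 to 36.4), against 25.998% of the eligible sequence.

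The same fall appeared in each replicate alone. In the first 250 bp, from there to 500 bp, and beyond to 1000 bp, the pooled members had 152, 123 and 92.3 per Mb, the replicate 1 list 141, 111 and 94.3 per Mb and the replicate 2 list 149, 115.01 and 94.3 per Mb. The 128 stronger one-sided promoter peaks had a median distance of 246.5 bp. A single start among many annotated ones can set the distance, and with the most upstream start of each gene alone the median was 410 bp over 1619 peaks.

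**Figure D2:**
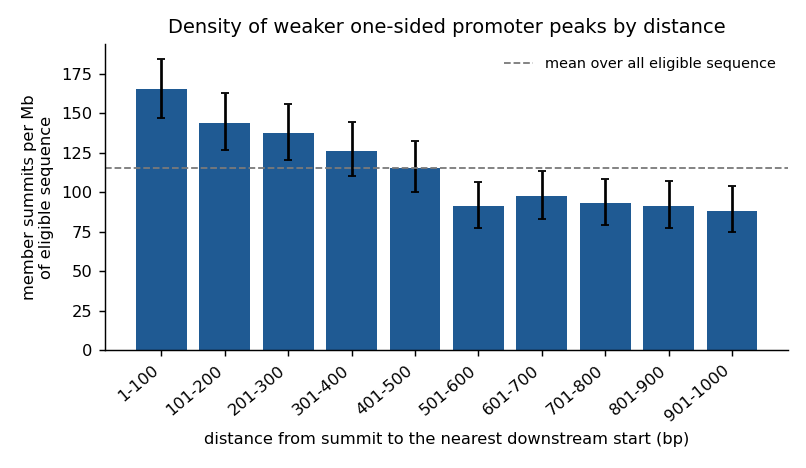
Member summits per Mb of eligible sequence (vertical axis) by distance from the summit to the nearest downstream start in 100 bp classes (horizontal axis); bars carry exact 95% Poisson intervals and the dashed line is the mean of 115.6 per Mb. Density declines over the first 500 bp and is level beyond.

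Members were several times denser in short gaps between genes than in long ones. Of the members, 736 (36.6%, 34.5 to 38.7) lay in a gap between genes whose upstream neighbour ran in the same direction, called a tandem gap here, against 32.6% of the eligible sequence. In tandem gaps of at most 500 bp there were 234 members in 0.697 Mb, or 336 per Mb (294 to 381). The density was 150 per Mb (130 to 173) in gaps over 500 and up to 1000 bp, 98.8 per Mb (83.3 to 116.3) in gaps over 1000 and up to 2000 bp and 74.1 per Mb (63.2 to 86.2) in longer gaps. The shortest gaps, of at most 200 bp, had 344 per Mb (264 to 441). The replicate 1 list gave 320 per Mb in gaps of at most 500 bp and 74.1 per Mb in gaps above 2000 bp, and the replicate 2 list gave 308 and 76.3 per Mb.

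The density in gaps of at most 500 bp was thus 4.53 times that in gaps above 2000 bp (3.70 to 5.56). All sequence in gaps of at most 500 bp lies within 500 bp of the start, where members were denser. The comparison was not made at like distance, nor the fall with distance at like gap length. The ratio was 6.96 (5.23 to 9.34) over the members above the median signal and 2.67 (1.95 to 3.64) over the members at or below it. Members in gaps of at most 500 bp also had a higher median signal, 54.5 against 47.2 in gaps above 2000 bp, and 59.0% of them had partners in both replicates against 47.0%. Within tandem gaps, 36.4% of members lay nearer to the neighbour's 3′ end than to the start, against 25% of the eligible gap sequence. Gap length goes with that comparison, since a position within 1000 bp of the start can be nearer to the neighbour's end only in gaps under 2000 bp. In gaps of at most 500 bp the density was 317 per Mb (260 to 381) on the side of the neighbour's end and 354 per Mb (295 to 423) on the side of the start. In gaps over 500 and up to 1000 bp it was 175 per Mb (144 to 210) on the side of the end and 126 per Mb (100.2 to 157) on the side of the start. A peak is 430 bp wide, so in a short gap a peak reaches into both genes.

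Examples in tandem gaps were gst-1, with a summit 218 bp past the neighbour's end, K05C4.7, with one 291 bp past it, and tofu-7, with one 111 bp past it. The member upstream of wrm-1, by contrast, lay 4469 bp past the neighbour's end. Of the remaining members, 454 (22.6%) lay inside the gene they preceded, upstream of an internal start, at 129 per Mb (118 to 142). Another 347 (17.2%) lay inside a different gene of the same strand at 109 per Mb (98.05 to 121), and 182 (9.05%) inside a gene of the opposite strand at 99.4 per Mb (85.5 to 114.9). The last 293 (14.6%) lay between genes with an upstream neighbour of the opposite direction whose start was out of reach. Their density was 91.3 per Mb (81.2 to 102). By the member rule these gaps exceed 1000 bp, while tandem gaps may be of any length. Tandem gaps over 1000 and up to 2000 bp had 98.8 per Mb (83.3 to 116.3), and longer ones 74.1 per Mb (63.2 to 86.2). The higher density over all tandem gaps was therefore not seen in those above 2000 bp.

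In all 5 settings the density was higher in the first 250 bp than beyond 500 bp, though not clearly so inside genes of the opposite strand. In tandem gaps the density fell to 85.9 per Mb (74.3 to 98.9) beyond 500 bp, against 169 per Mb (151 to 189) in the first 250 bp. Inside the same gene it was 110.7 per Mb (94.3 to 129) beyond 500 bp and 154 per Mb (132 to 178) in the first 250 bp. Inside a gene of the opposite strand there was no such order, with 90.6 per Mb (74.8 to 108.9) beyond 500 bp and 107.5 per Mb (65.7 to 166) in the first 250 bp. Support by both replicates was 50.7% in tandem gaps and between 42.3% and 46.4% in the other 4 settings. Members in tandem gaps also had the highest median signal of the 5 settings, 49.9, where the others had 47.3 to 48.6.

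By base, 15.4% of the summits lay in coding exons against 17.2% of the eligible sequence, and 24.5% in introns against 24.2%. Annotated genes of the biotype ncRNA held 50 summits (2.49%, 1.85 to 3.26), against 0.95% of the eligible sequence. Pseudogenes held 20 (0.994%, 0.608 to 1.53), against 1.87%. No summit lay in a piRNA gene, and piRNA genes took 0.193% of the eligible sequence. The exact upper limit for 0 of 2012 members is 0.183%, just below that share. With only 0.0335 Mb of such sequence, the shortfall rests on few bases.

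**Figure D3:**
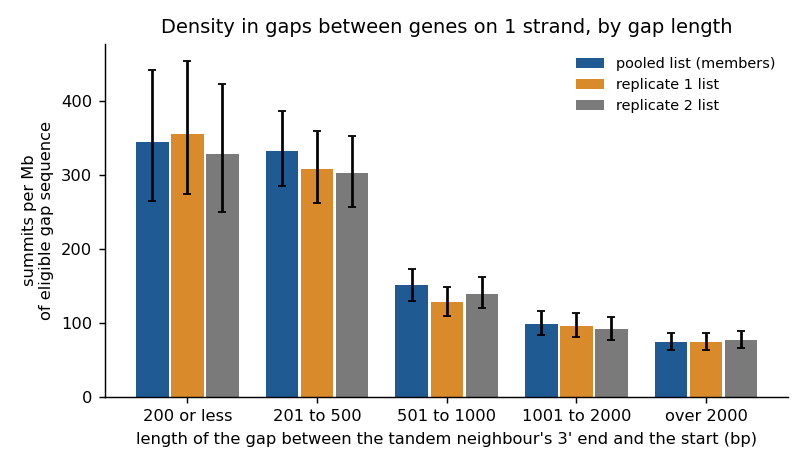
Summits per Mb of eligible sequence in tandem gaps (vertical axis) by length of the gap (horizontal axis, bp), for the members and for the same ranks of the replicate 1 and replicate 2 lists; bars carry exact 95% Poisson intervals. In all 3 lists the density is above 300 per Mb in gaps of at most 500 bp and under 80 per Mb in gaps above 2000 bp.

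On the chromosomes, members followed the eligible sequence along arms and centres. Arms, here the outer 30% at each end, are the parts of worm autosomes with frequent crossing over and many repeats. They held 1097 members (54.5%, 52.3 to 56.7), against 56.0% of the eligible sequence, and all weaker autosomal peaks had a background of 59.5% on arms. The density was 113 per Mb (106 to 119.5) on arms and 119.5 per Mb (111.9 to 127) in centres. The replicate 1 list gave 110.5 per Mb on arms and 110.9 per Mb in centres, and the replicate 2 list gave 111 and 117 per Mb.

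Compared with other weaker peaks, the arm share was intermediate. Members had 54.5% on arms and the divergent-promoter peaks 47.7% (165 of 346), a difference of 6.84 percentage points (2-sided Fisher's exact test, p = 0.020, Benjamini-Hochberg adjusted p = 0.026 over 4 comparisons). Members fell short of the peaks away from starts, 62.2% of which lay on arms (3442 of 5531), by 7.71 percentage points (Fisher's exact test, adjusted p = 7.2e-09). The arm share of the sequence open to the other sets of peaks was not computed. The part of where such sequence lies in both differences was therefore not tested. The difference from the divergent-promoter peaks did not pass when peaks with another pooled summit within 430 bp were left out (5.62 points, Fisher's exact test, adjusted p = 0.077). Across the 4 signal ranges set by the members' quartiles, the arm share of the members lay between 52.3% and 57.3%, that of the divergent-promoter peaks between 43.3% and 51.3% and that of the peaks away from starts between 58.5% and 64.0%.

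Chromosomes differed more than arms and centres did. Chromosome III had 160 members per Mb of eligible sequence (145 to 176), chromosome I 136 (123 to 150), chromosome II 118 (107 to 130), chromosome IV 105 (94.6 to 116.2) and chromosome V 86.2 (78.1 to 94.8). Both replicate lists also put III and I highest and V lowest. Replicate 1 had 142 per Mb on III and 86.6 on V, and replicate 2 had 162 and 84.5. Chromosomes II and I were uneven between their arms. The left arm of II had 84.7 members per Mb (68.2 to 103.9) and its right arm 135 (111.9 to 162), and the left arm of I had 163 (136 to 193) and its right arm 108.3 (87.1 to 133). The replicate lists gave 92.1 and 80.01 per Mb on the left arm of II and 125 and 123 on its right arm. On chromosome I they gave 153 and 152 per Mb on the left arm, and 132 and 99.8 on the right.

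Replicate support was partial. A member counted as supported in a replicate when a peak of that list overlapped at least 50% of the shorter of the pair. Of the 2012 members, 936 (46.5%, 44.3 to 48.7) had a partner in both lists, beside a background of 45.9% for all weaker autosomal peaks. A further 602 (29.9%) had a partner in replicate 1 only, 425 (21.1%) in replicate 2 only and 49 (2.44%) in neither. The pooled list was made from the same reads as the replicate lists, so a partner is not independent evidence. In 84 of the 936 members (8.97%) at least 1 partner lay nearer to another pooled summit, and without these the share was 42.3% (40.2 to 44.5).

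Support followed the signal closely. With the members cut into 4 groups of 503 by signal, it was 84.5% (81.03 to 87.5) in the strongest, 53.7% (49.2 to 58.1) and 31.8% (27.8 to 36.1) in the next 2 and 16.1% (12.999 to 19.6) in the weakest. The strongest group spans signals of 57.2 to 92.65 and the weakest 39.95 to 43.4. All 128 stronger one-sided promoter peaks had both partners. The authors drew the list thresholded for reproducibility from both replicate lists. Its lowest signal was 92.8, next to the signal limit of 92.7. Both partners were therefore largely built into the choice of these 128 peaks, and their share does not measure how support goes with signal. Among the 936 members with both partners, ranks in the replicates were only loosely related (Spearman rho = 0.19 across peaks that share libraries). Only 9 members were matched in the 739 strongest peaks of both replicate lists, 49 in those of replicate 1 and 45 in those of replicate 2.

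The share with both partners was below that of the divergent-promoter peaks, 57.5% (199 of 346), by 10.99 percentage points (2-sided Fisher's exact test, adjusted p = 3.7e-04). It was above that of the peaks away from starts, 43.7% (2419 of 5531), by 2.79 points (Fisher's exact test, adjusted p = 0.032). Signal moved with both differences. Within the 4 signal ranges, members had 16.1%, 31.8%, 53.7% and 84.5% support, the divergent-promoter peaks 21.1%, 41.8%, 56.9% and 85.5%, and the peaks away from starts 16.8%, 31.6%, 56.6% and 86%. At like signal the intervals of the 3 sets overlapped in each range.

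**Figure D4:**
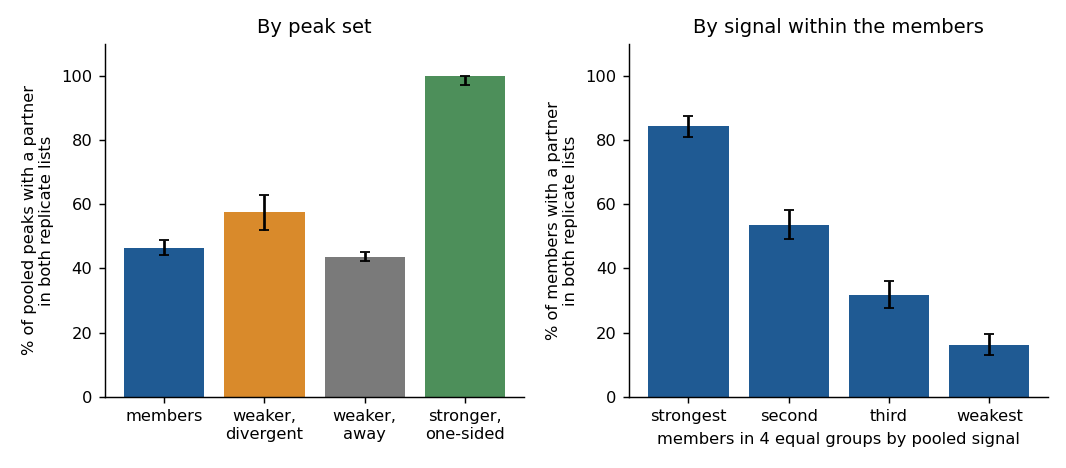
Share of pooled peaks with a partner in both replicate lists (vertical axes, percent), by set of peaks on the left and by 4 equal groups of the members' signal on the right; bars carry exact 95% binomial intervals. Members reach 46.5%, weaker divergent-promoter peaks 57.5% and weaker peaks away from starts 43.7%. Stronger one-sided promoter peaks reach 100%, a share largely fixed by their selection. Support falls with signal within the members to 16.1% in the weakest group.

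The share of genes with a member differed between gene lists, highest for splicing, germ line and oocyte, recombination and ribosomal protein genes and lowest for detoxification genes, chemoreceptors and lectins, leaving aside the yolk list with 0 of 1 gene. Of 16975 autosomal protein-coding genes with any eligible sequence upstream, 1880 had a member, a background of 11.1%. Of the 29 gene lists described, 16 were above this share, and all 16 were also above the share over all genes in the replicate 2 list and 13 of them in the replicate 1 list. The number includes histone genes, whose share equals the background to 1 decimal, and with a window of 500 bp 13 of the 16 were above that window's share of 7.47%. The lists were chosen with earlier results in view and are described by counts alone.

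Genes of RNA and protein synthesis were among the highest. Splicing factors had members at 21 of 80 genes (26.3%, 17.04 to 37.3), with 27.5% in the replicate 1 list and 17.5% in the replicate 2 list. Among them were mog-3, whose mutants make germ cells sperm only, with signal 84.4 at 182 bp, the snRNP gene snrp-3 with 83.3 at 288 bp, and hrpu-1 with 78.1 at 167 bp. Both mog-3 (ranks 3114 and 794) and snrp-3 (ranks 2794 and 692) stood higher in replicate 2 than in replicate 1, and hrpu-1 stood higher in replicate 1 (ranks 891 and 4951). Of the 27 members at splicing genes, 13 had partners in both replicates. Cytosolic ribosomal protein genes had 15 of 70 (21.4%, 12.5 to 32.9), with 21.4% and 17.1% in the replicate lists. The members at rpl-24.2 (82.1) and rpl-6 (80.8) had partners in both replicates, and the member at rps-8 (78.5) had one in replicate 1 only. In all, 8 of the 18 members at ribosomal protein genes had both partners. Ribosomal protein genes have little one-sided sequence, with a median of 637.5 bp against 1000 bp over all genes, so their members reached 381 per Mb against 114 per Mb over all genes. Translation factors had 7 of 36 (19.4%), among them eif-3.J (83.6), the cap-binding ife-1 (63.6) and eif-3.B (57.2). Of their 7 members 2 had both partners, and ife-1 and eif-3.B each lacked one. Their share was 11.1% in the replicate 1 list, near the background there.

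Genes of nuclear-encoded mitochondrial respiration had 11 of 56 (19.6%, 10.2 to 32.4), with cox-5A highest at 86.4 and a partner in replicate 1 only. Their share was 10.7% in the replicate 1 list and 14.3% in the replicate 2 list. Vesicle traffic and vacuolar sorting genes had 21 of 114 (18.4%, 11.8 to 26.8), among them the proton pump subunit vha-13 (68.1) and the small GTPase arf-1 (58.02). Proteasome genes had 4 of 32 (12.5%), none of the 4 with partners in both replicates, and 9.38% in the replicate 1 list against 18.8% in the replicate 2 list. Histone genes had 8 of 72 (11.1%), at the background, and 1.32% with a window of 500 bp. Chaperone genes had 8 of 55 (14.5%, 6.50 to 26.7), with hsp-1 at 79.4. Their share was 7.27% in the replicate 1 list, below its share over all genes of 10.5%, and 10.9% in the replicate 2 list, where all genes had 10.8%. Kinesin, dynein and tubulin genes had 5 of 36 (13.9%), with 19.4% and 13.9% in the replicate lists and 2.86% with a window of 500 bp.

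Among the germline and meiotic lists, only that of germ line and oocyte genes had an interval wholly above the background. These genes had 16 of 62 (25.8%, 15.5 to 38.5), with 24.2% in replicate 1 and 22.6% in replicate 2. The translational repressor gld-1 had a member of 78.3 at 149 bp with a partner in replicate 2 only. The poly(A) polymerase gene gld-2 (69.7 at 20 bp) and the Argonaute gene csr-1 (69.6 at 344 bp) had partners in both, as had 8 of the 16 members of the list. Meiotic recombination and pairing genes had 9 of 41 (21.95%, 10.6 to 37.6), among them hal-3 (79.96), pch-2 (70.7), which encodes a checkpoint ATPase, and him-14 (63.3), the MSH4 relative needed for crossovers. The replicates ranked these apart, with 669 and 6758 for hal-3, 11918 and 951 for pch-2, and 1453 and 5302 for him-14. Of the 13 axis and synaptonemal complex genes, syp-5 had a member of 86.6 at 205 bp, with ranks of 1074 and 974, and the axis gene htp-3 had one of 44.2 with no partner. That is a share of 15.4% (1.92 to 45.4), and the interval of the recombination list also holds the background. Cohesin genes and regulators had 1 of 12 (8.33%, 0.211 to 38.5), below the background, and 2 of 12 in each replicate list, above it. Chromatin regulators had 15 of 73 (20.5%, 11.98 to 31.6), with 20.5% and 23.3% in the replicate lists. Among them were lin-9 (79.9), of the DREAM repressor complex, mes-2 (75.5), the H3K27 methyltransferase of the worm germ line, and set-4 (74.1). The partners of mes-2 (ranks 2108 and 1556) and set-4 (ranks 2279 and 1326) stood closer together than those of lin-9 (ranks 901 and 5787). Major sperm protein genes and their relatives, by contrast, had 3 of 49 (6.12%, 1.28 to 16.9), and 4.08% and 2.04% in the replicate lists.

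Large families of sensory, defence and detoxification genes were well below the background. Chemoreceptors had members at 51 of 1320 genes (3.86%, 2.89 to 5.05), with 3.56% and 4.17% in the replicate lists. The highest was srh-2 (77.6), beside a stronger summit as given above, followed by srh-269 (75.9) and srh-87 (72.7). Of the 53 members at chemoreceptor genes, 20 had partners in both replicates. C-type lectins had 9 of 231 (3.90%, 1.80 to 7.27, and 6.49% in the replicate 2 list), and F-box and MATH/BTB genes had 19 of 420 (4.52%, 2.75 to 6.97). Genes for cytochromes P450, glucuronosyltransferases and glutathione S-transferases had 6 of 171 (3.51%, 1.30 to 7.48), and gst-5, gst-1 and ugt-65 were the highest of the 6. Arms hold 71.6% of the chemoreceptor genes, 77.1% of the lectin genes, 92.4% of the F-box and MATH/BTB genes and 57.9% of the detoxification genes, against 54.8% of all genes tested and 33.9% of the germ line and oocyte genes. The part of chromosome position in these shares was not tested.

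Of the remaining lists, collagens, neuropeptides, nuclear hormone receptors, ion channels and 2 lists of developmental transcription factors lay below the background, and muscle, Wnt and Notch, and condensin genes above it with intervals that hold it. Cuticle collagens had 8 of 140 (5.71%, 2.50 to 10.9), neuropeptides and insulins 6 of 107 (5.61%, 2.09 to 11.8), nuclear hormone receptors 16 of 245 (6.53%, 3.78 to 10.4) and ion channels 10 of 125 (8.00%, 3.90 to 14.2), with 4% for ion channels in the replicate 1 list. Homeobox factors had 5 of 65 (7.69%, 2.54 to 17.05), but 3.08% in the replicate 1 list and 12.3% in the replicate 2 list, above its share over all genes. T-box, GATA and bHLH factors had 4 of 43 (9.30%), with 6.98% and 11.6% in the replicate lists, the second above its share over all genes. Only 1 of the 5 homeobox members had both partners. Body muscle genes had 5 of 32 (15.6%, 5.28 to 32.8), among them the actin gene act-3. Wnt and Notch genes had 6 of 42 (14.3%, 5.43 to 28.5), with wrm-1 the highest, and 4.76% with a window of 500 bp, below that window's share over all genes. With that window ion channels had 3.15% and neuropeptides and insulins 0%, with an upper limit of 3.36%. Condensin and dosage compensation genes had 2 of 12, both with a partner in replicate 2 only, and 0 of 12 and 3 of 12 in the replicate lists. Libraries from whole animals do not show in which cells any of these peaks arose.

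**Figure D5:**
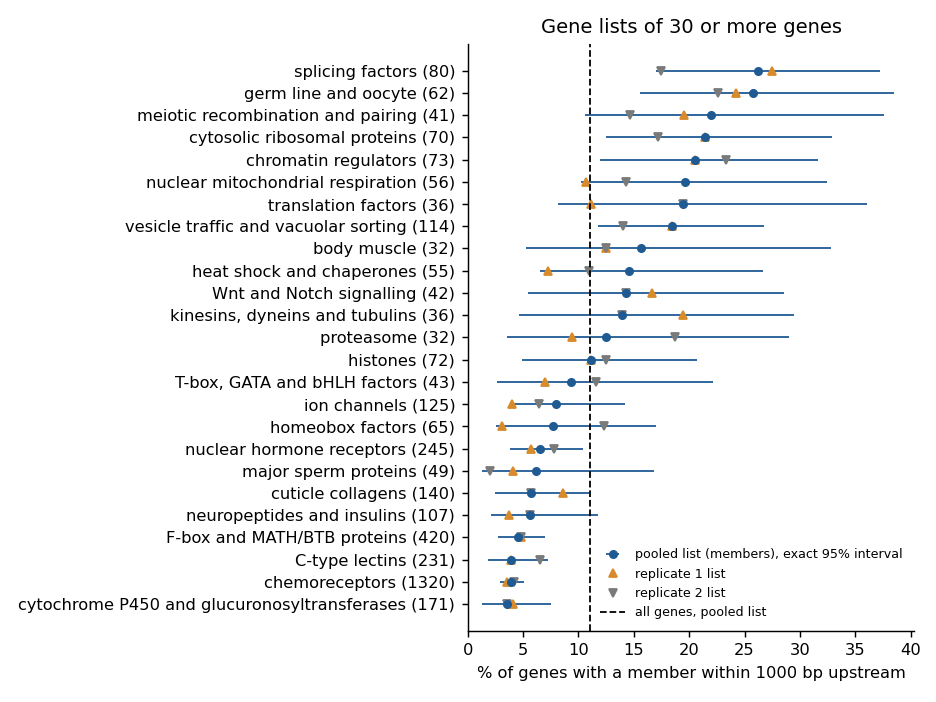
Share of genes with a member within 1000 bp upstream (horizontal axis, percent) for the gene lists with 30 or more genes (vertical axis, number of genes in parentheses), with exact 95% binomial intervals and the values from each replicate's own list; the dashed line is the share over all genes, 11.1%. Detoxification genes stand as cytochrome P450 and glucuronosyltransferases and include glutathione S-transferases. Splicing, germ line, ribosomal and chromatin genes lie right of the line in all 3 lists, and chemoreceptor, lectin, F-box and detoxification genes lie left of it in all 3.

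Class names of gene symbols gave a finer view. Among 149 classes with at least 10 eligible genes, zipt zinc transporters had members at 5 of 12 genes, rbm RNA-binding genes at 5 of 13, ubc ubiquitin-conjugating enzymes at 6 of 17, rps small-subunit ribosomal proteins at 9 of 26 and cox respiratory genes at 5 of 15. Then followed egl genes with 7 of 21, lin genes with 12 of 39, atg autophagy genes and ncx ion exchangers with 3 of 10 each, and taf transcription factor subunits with 4 of 14. With so few genes per class the intervals were wide, 15.2 to 72.3% for zipt and 17.02 to 47.6% for lin, and these are the highest of 149 shares. Several counts were much lower in a replicate's own list. In the replicate 2 list ubc had 3 of 17, rps 4 of 26 and taf 1 of 14, and in the replicate 1 list cox had 2 of 15, lin 7 of 39, taf 2 of 14 and atg 1 of 10. The ncx class had 1 of 10 in each. The zipt, rbm and egl classes moved less, with 4 and 6 of 12, 4 and 4 of 13, and 6 and 5 of 21 genes. Examples were zipt-9 (76.8), the SUMO-conjugating ubc-9 (65.4), the splicing-related rbm-39 (66.5) and taf-12 (83.4). Of the 20 largest classes, the lowest were cyp with 0 of 67, oac with 1 of 55, sre with 1 of 54, srw with 3 of 108 and fbxb with 3 of 101. No member lay upstream of any gene in 24 of the 149 classes. At the background of 11.1% small classes can hold no marked gene through their size alone. The number of such classes to be expected was not computed, so the count says little about them. Genes with a class symbol carried members at 12.6% (1180 of 9383) and genes known by sequence name alone at 9.22% (700 of 7592).

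Most genes had a single member, with 154 genes holding 2, 13 holding 3 and 2 holding 4. The 2 genes with 4 members were hrpu-1, an hnRNP U-related gene with 5 start positions, and nkcc-1, a cation-chloride cotransporter gene with 9. At hrpu-1 the signals were 78.1, 55.6, 54.5 and 48.4, and the first 3 had partners in both replicates. At nkcc-1 they were 53.02, 42.9, 47.0 and 42.2, all inside the gene, and only the first had both partners. gst-5, BE0003N10.6, act-3 and rml-1 had 3 members each. Members of 1 gene are not independent. At act-3 the summits 97 bp and 320 bp from the start shared their partners in both replicates, as did the pair of rml-1 members with signals of 66.0 and 43.1.

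The tagged gene was itself marked. The member in rec-8, on chromosome IV at summit 13349575, lay 260 bp upstream of a rec-8 start and inside the gene, with pooled signal 80.8 (rank 1008). The gene spans 13349122 to 13353193 on the minus strand, so that start is internal and the summit lay toward the 3′ end. The tag of the transgene is C-terminal, thus at that end of the coding sequence. Partners of the member had signal 46.8 (rank 921) in replicate 1 and 33.6 (rank 2280) in replicate 2. Another pooled summit of signal 76.0 lay 533 bp from it, and 5 pooled summits in all lay within 1000 bp of the gene. It was the only member among the 12 cohesin genes and regulators with eligible sequence. Neither of the genes for the other meiotic kleisins had a member. The pooled peak at coh-3 (signal 73.0) lay at a divergent promoter, and the highest pooled peak at coh-4 (75.5) was not upstream of a start. The gene unc-119 had no pooled peak within 1000 bp. Extra copies of rec-8 sequence in the transgenic line could add reads at the gene, and their part in this peak was not tested.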

How the data were processed

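REC-8-GFP ChIP-seq was carried out on 2 biological replicates of whole young adult worms. Per the file listings and the labels, the authors called peaks for each replicate with a control and for both pooled, and deposited lists in ce10 and ce11. The ce11 lists (WBcel235) were used, and of the deposited columns the peak caller's signal. The sources used here do not give the aligner or the peak caller, and depth is unknown. Coordinates count from 1.

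Gene models were from Ensembl release 115 and sequence from RefSeq. Every autosomal base meeting the position part of the member rule made up the eligible sequence. The intervals are exact 95% binomial or Poisson intervals. Peak sets were compared by 2-sided Fisher's exact tests, adjusted over 4 comparisons. Peaks are not biological replicates, so these p-values do not cover the spread between animals. For values from 1 replicate, its own list was taken at the ranks held by the weaker pooled peaks, with 740 stronger peaks set aside. Members, lists and rules were chosen with earlier results of these data known. Named genes were the 15 members with the best worse rank over both replicates, 5 on each side of the limit, up to 3 per list by signal, the top 10 classes and the 5 lowest of the 20 largest, the 6 genes with most members, rec-8, coh-3, coh-4 and unc-119; not all of them are written out. The sequence rule took the best worse rank per location class. Of its 8 picks, 6 had a partner nearer to another, stronger pooled summit and were replaced after their values were seen. The pick at eel-1 also lay beside a stronger summit but was kept, since its partners were nearest to it. Scripts used Python 3.11.15, NumPy 2.4.6, SciPy 1.17.1 and Matplotlib 3.10.9, and were tested on simulated data.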

Additional observations from a re-analysis of the deposited data

How the results depend on the processing

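Alternatives were other windows, starts, distances from short RNA genes, signal ranges, merging, overlap rules, arm limits and each replicate's own list. Removing crowded peaks, requiring a partner nearest to the peak itself, the arm comparisons per replicate, and all alternatives for GCGC and gap length were chosen after the data were seen. Of the 4 comparisons, 1 call was lost: the arm share against divergent-promoter peaks without summits within 430 bp of another (5.62 points). In a single replicate's list it was 7.21 to 11.8 points, and that against peaks away from starts -6.43 to -5.26 points.

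A window of 500 bp gave 49.2% support, a median distance of 219 bp, 55.8% within 250 bp, 40.4% in tandem gaps and 39.8% with GCGC. Over all genes it gave 7.47% with a member, and besides the lists named above, F-box and MATH/BTB genes had 2.36% and nuclear hormone receptors 3.67%. The most upstream starts gave 45.5% in tandem gaps. Splitting at the median signal left 1006 members on each side. Those at or below it gave 24.0% support, 37% GC, 32.5% in tandem gaps, 29.6% with GCGC and a gap ratio of 2.67. Those above it gave 69.1% support, 40.7% in tandem gaps, 42.7% with GCGC and a ratio of 6.96. An outer 25% as arm gave 43.5%. Support was 52.98% at 1 bp of overlap, 42.3% with partners nearest to the member, and 30.4% using as many of the strongest replicate peaks as the pooled list holds. In single replicates' lists median GC was 37 to 37.5% and the GCGC share 33.8 to 34.1%. Support could not be computed without a replicate. No paired analysis was possible because the study has 1 group.

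The limits are 2 replicates, no control or untagged sample analysed here, unknown depth, 430 bp peaks that blur distances in compact regions, and annotated starts that in worms are often trans-splice sites.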
